A study of Homo sapiens with 26 samples.

Results

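Metalloproteases of the extracellular matrix and cell surface, together with their inhibitors, were followed across 26 single cell-derived cell lines (SCDCLs) of pancreatic ductal adenocarcinoma. The members were the protein-coding genes whose symbol is MMP, ADAM, ADAMTS or TIMP followed by a number. They comprised 66 genes, of which 23 were MMP, 20 ADAM, 19 ADAMTS and 4 TIMP genes, among 19903 protein-coding genes and 41078 genes in all. Messenger RNA was sequenced once from each SCDCL, with 12 libraries labelled BxPC3 and 14 labelled Panc1, both established cell lines. Each SCDCL was grown from 1 cell and has 1 library. The labels name gemcitabine, a nucleoside analogue, for every library, whereas the methods describe it for separate viability assays. The libraries were therefore not divided by treatment, and the response of each SCDCL to gemcitabine was not analysed here.

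The labels were checked first against SMAD4, a signal transducer of the TGF-beta pathway whose gene is deleted in BxPC3. SMAD4 was at 0 to 0.0440 TPM (a transcript level scaled for transcript length and library size) in 12 libraries, and at 28.1 to 52.2 TPM in the other 14. The 12 SMAD4-lacking libraries were numbers 1 to 7, labelled Panc1, and 16, 21, 24, 25 and 26, labelled BxPC3. The 14 SMAD4-expressing libraries were numbers 8 to 14, labelled Panc1, and 15, 17 to 20, 22 and 23, labelled BxPC3. SMAD4 thus went against the label of 7 libraries labelled Panc1 and 7 labelled BxPC3. Values are given below for the SMAD4 sets, which were made from a measured value, so no test was run between them. Depth was similar, with totals of 27144920 to 34945608 estimated counts in the SMAD4-lacking and 27035724 to 32601392 in the SMAD4-expressing libraries.

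The epithelial keratins KRT8, KRT18 and KRT19 were at 298 TPM or more in every library, and all 3 overlapped between the sets. KRT8 had a median of 461 TPM in the SMAD4-lacking and 2053 TPM in the SMAD4-expressing libraries, and KRT18 of 521 and 1598 TPM. KRT19 had the opposite order, with medians of 1966 and 1220 TPM. The sets also differed in other markers: EPCAM was at 239 to 424 TPM in the SMAD4-lacking libraries and at 7.49 to 25.5 TPM in the SMAD4-expressing ones, and VIM at 1.42 to 73.2 and 3047 to 4526 TPM. CDH1 was at 90.8 to 198 TPM in the SMAD4-lacking and at 0.338 to 7.74 TPM in the SMAD4-expressing libraries, and ZEB1 at 0.259 to 2.39 and 16.8 to 26.2 TPM. The mesenchymal marker CDH2 overlapped, at 1.31 to 7.45 and 3.35 to 184 TPM. CDKN2A, which both lines have lost, was at 0 in all 26 libraries. Of the 6 fibroblast markers, summed at 9.83 to 28.6 and 2.71 to 39.7 TPM, COL1A1 made up most of the sum at 8.92 to 26.5 and 2.06 to 38.5 TPM. PDGFRB reached 3.47 TPM and COL3A1 1.87 TPM, and LUM was at most 0.243 TPM. Of the 6 leukocyte markers, summed at 5.71 to 32.0 and 45.6 to 145 TPM, PTPRC was at most 0.535 TPM and MPO at most 0.0356 TPM. ITGAM reached 4.12 TPM. Most of the sum was CD68, which separated the sets, at 5.27 to 26.9 TPM in the SMAD4-lacking and 42.5 to 141 TPM in the SMAD4-expressing libraries. The 3 endothelial markers summed to 3.16 to 16.97 and 0.321 to 5.39 TPM, and of these CDH5 separated the sets, at 1.04 to 13.6 TPM in the SMAD4-lacking and at most 0.0427 TPM in the SMAD4-expressing libraries. PECAM1 overlapped, at 0.897 to 6.07 and 0.321 to 5.38 TPM. The markers that moved with the sets moved with every result below that compares the sets, and their part in those results was not tested. These are bulk libraries, in which fewer cells with a transcript and less of it per cell cannot be told apart.

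MMPs are zinc enzymes that are made as inactive precursors and cut collagens and other matrix proteins. ADAMs are membrane proteins that release growth factors, cytokines and adhesion molecules from the cell surface, although part of the family has no catalytic site. ADAMTS enzymes are secreted and cut proteoglycans and other matrix components, and TIMPs bind the active site of these enzymes. In pancreatic carcinoma they are known for remodelling a dense collagen-rich stroma.

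Of these genes 9 are neighbours, and only some of them separated the SMAD4 sets by the rule given below. The sequences before 5 of them, those with an entry in the promoter table, are shown so that MMP10, which did, can be read beside neighbours that did not. On GRCh38 they lie within chromosome 11, 102520508 to 102955732, on the minus strand, in the order MMP7, MMP20, MMP27, MMP8, MMP10, MMP1, MMP3, MMP12 and MMP13. The region holds 9 protein-coding genes, all of them MMPs. The 120 bases before the transcription start are given from RefSeq (GRCh38.p14), 5′ to 3′ on the gene's strand, at chr11:102530748-102530867 (MMP7), chr11:102625333-102625452 (MMP20), chr11:102705770-102705889 (MMP27), chr11:102724955-102725074 (MMP8) and chr11:102780629-102780748 (MMP10). Capitals mark TATAAA, the TATA box letters, and TGAGTCA, the letters bound by AP-1.
MMP7: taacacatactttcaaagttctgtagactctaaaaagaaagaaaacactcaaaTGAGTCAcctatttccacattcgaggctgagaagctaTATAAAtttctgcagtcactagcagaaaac
MMP20: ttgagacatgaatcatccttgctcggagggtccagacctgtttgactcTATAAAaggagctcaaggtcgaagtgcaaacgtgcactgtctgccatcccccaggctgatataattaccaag
MMP27: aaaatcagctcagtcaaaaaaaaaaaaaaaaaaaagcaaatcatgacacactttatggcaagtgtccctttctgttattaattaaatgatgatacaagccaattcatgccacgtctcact
MMP8: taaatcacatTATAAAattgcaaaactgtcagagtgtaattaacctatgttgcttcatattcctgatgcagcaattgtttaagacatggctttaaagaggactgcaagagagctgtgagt
MMP10: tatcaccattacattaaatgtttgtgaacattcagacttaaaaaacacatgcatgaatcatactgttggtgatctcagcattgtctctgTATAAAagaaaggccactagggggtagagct
TGAGTCA was searched on both strands (TGACTCA on the other) and TATAAA on the gene's strand, in the 250 bases before the start. Of the 66 members, 39 had a promoter in the table, and MMP1, MMP2, MMP3, MMP9, MMP12 and MMP13 were among those with none. TGAGTCA was present in 1 of the 39, MMP7, at position -67 from the start, and in 4.16% of all 27305 promoters. TATAAA was present in 6 of the 39 (15.4%), all MMPs (MMP7, MMP8, MMP10, MMP20, MMP21 and MMP26), and in 7.17% of all promoters. Of the 5 genes shown, MMP10 and MMP7 had a set median of at least 1 TPM, and both hold TATAAA near the start, at -31 and -30. MMP20 and MMP8 hold it farther upstream of the RefSeq start and were below 1 TPM in every library. MMP26, not shown, holds it near the start as well, at -28, and was at 0 in every library. A relation between the position of TATAAA and the level was not tested. These matches are descriptions of the letters only.

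A member was said to separate the SMAD4 sets where no library of one set reached the range of the other, the set medians differed at least 4-fold and the higher median was at least 1 TPM. By this rule 24 of the 66 members (36.4%) separated the sets, beside 10.6% of all protein-coding genes. Of these, 16 were higher in the SMAD4-lacking libraries (background 6.23%) and 8 in the SMAD4-expressing libraries (background 4.33%). By family, 11 of 23 MMPs, 5 of 20 ADAMs, 6 of 19 ADAMTS genes and 2 of 4 TIMPs separated the sets. A further 14 members had a median of at least 1 TPM in a set without separating, and 7 reached 1 TPM in some libraries without such a median. The other 21 stayed under 1 TPM in every library, including ADAM12, ADAMTS4, ADAMTS5 and MMP8, and ADAM7, ADAM30 and MMP26 were at 0 in all.

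**Figure D1:**
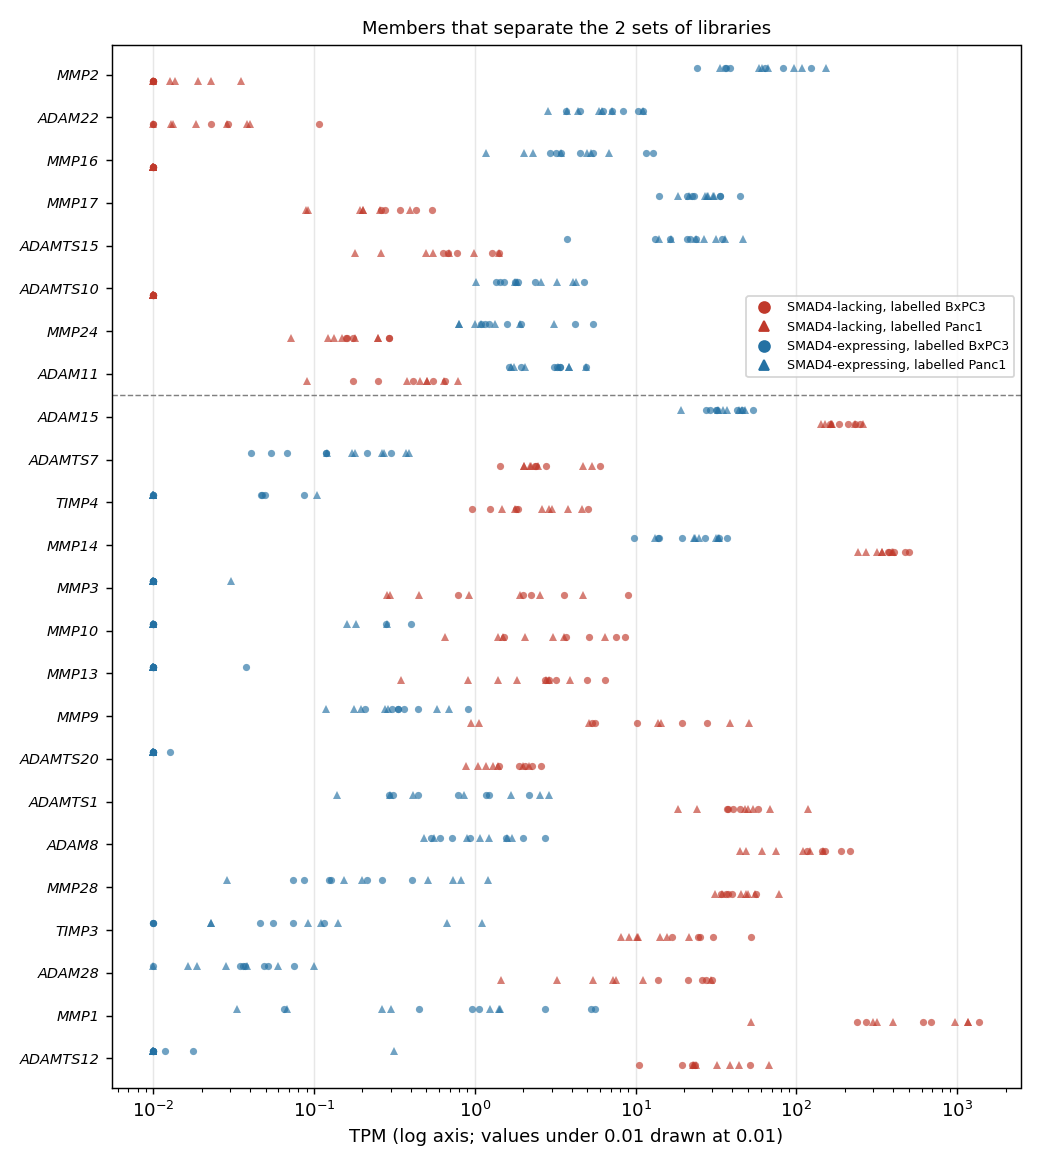
TPM of the 24 members that separate the SMAD4 sets, on a log axis, with 1 point per library, colours for the SMAD4 set and circles or triangles for the label. The 8 members above the dashed line were higher in the SMAD4-expressing and the 16 below it in the SMAD4-lacking libraries, and circles and triangles of 1 colour lie together.

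Both collagenases with a median of 1 TPM or more were higher in the SMAD4-lacking libraries. MMP1 (ENSG00000196611, GRCh38 chromosome 11, 102789401 to 102798160), interstitial collagenase, was at 52.5, 505 and 1370 TPM (lowest, median and highest) in the 12 SMAD4-lacking libraries and at 0.0333, 1.01 and 5.59 TPM in the 14 others. Its set medians differed 499-fold, and it had the highest median of all members in the SMAD4-lacking set. MMP13, a collagenase of cartilage and bone, was at 0.346, 2.83 and 6.49 TPM, while in the SMAD4-expressing libraries it reached 0.0378 TPM or 1.65 estimated counts. MMP8, the neutrophil collagenase, was below 1 TPM throughout.

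The gelatinases, which cut denatured collagen and basement membrane collagen, were divided between the sets. MMP2 (ENSG00000087245, chromosome 16, 55389700 to 55506691), gelatinase A, was at 24.1, 62.5 and 154 TPM in the SMAD4-expressing libraries. In the SMAD4-lacking libraries MMP2 was at most 0.0354 TPM, which is 2.94 estimated counts, so its level there was at the limit of detection. MMP9 (ENSG00000100985, chromosome 20, 46008908 to 46016561), gelatinase B, was at 0.945, 11.96 and 50.4 TPM in the SMAD4-lacking and at 0.118, 0.317 and 0.902 TPM in the SMAD4-expressing libraries, a 37.7-fold difference of medians. The gap between the sets was narrow for MMP9, with 1.05-fold between the lowest library of the higher set and the highest of the lower set.

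Of the stromelysins, which cut proteoglycans and activate other MMPs, MMP3 and MMP10 were higher in the SMAD4-lacking libraries and MMP11 did not separate the sets. MMP10 was at 0.657, 3.33 and 8.53 TPM in the SMAD4-lacking libraries and at most 0.401 TPM in the others. MMP3 was at 0.284, 1.95 and 8.98 TPM, and it reached 0.0305 TPM in the SMAD4-expressing libraries. MMP7, matrilysin, which many epithelia make, overlapped between the sets at 0.106, 2.70 and 11.6 against 0.306, 1.68 and 5.64 TPM. MMP28, epilysin of keratinocytes and other epithelia, stood well apart at 31.3, 42.5 and 77.9 TPM against 0.0286, 0.206 and 1.21 TPM, a 207-fold difference of medians.

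Of the 9 neighbouring MMP genes, the 4 that separated the sets (MMP10, MMP1, MMP3 and MMP13) lay at one end of the run, with MMP12 among them. MMP12, macrophage elastase, also did not overlap, at 0.245, 0.681 and 1.38 TPM against at most 0.0361 TPM, but its median was below 1 TPM. At the other end MMP20 and MMP8 were at most 0.400 and 0.416 TPM in any library, and MMP27 was detected in 1 library only, at 3.06 estimated counts.

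**Figure D2:**
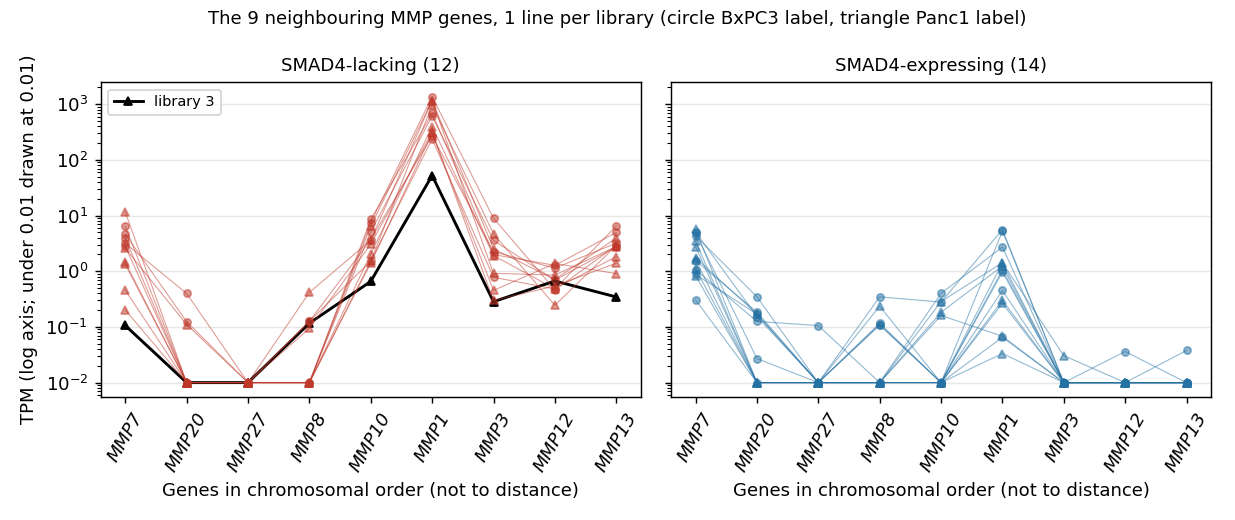
TPM on a log axis of the 9 neighbouring MMP genes in chromosomal order, with 1 line per library, the SMAD4-lacking set on the left and the SMAD4-expressing set on the right. MMP1 forms the peak in the left panel, at 52.5 to 1370 TPM, where library 3 (black) is the lowest line at MMP7, MMP10, MMP1, MMP3 and MMP13 but not at MMP12.

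All 6 membrane-type MMPs were expressed, and 4 separated the sets in different directions. MMP14 (ENSG00000157227, chromosome 14, 22836560 to 22849041), which cuts collagen at the cell surface and activates proMMP2, was at 240, 374 and 505 TPM in the SMAD4-lacking and at 9.70, 24.0 and 37.0 TPM in the SMAD4-expressing libraries, 15.6-fold apart. MMP17 (ENSG00000198598, chromosome 12, 131828393 to 131851783), which is held in the membrane by a GPI anchor, was at 13.98, 27.3 and 44.7 TPM in the SMAD4-expressing and at 0.0897, 0.259 and 0.541 TPM in the SMAD4-lacking libraries. MMP17 therefore lay 106-fold apart in the direction opposite to MMP14.

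Of the other 2 membrane-type enzymes that separated the sets, both span the membrane and both were higher in the SMAD4-expressing libraries. MMP16 was at 1.18, 3.97 and 12.7 TPM there and at most 0.00489 TPM in the SMAD4-lacking libraries. MMP24 was at 0.798, 1.28 and 5.41 TPM against 0.0722, 0.168 and 0.294 TPM, a 7.63-fold difference. MMP15 and MMP25 overlapped between the sets.

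ADAM8 (ENSG00000151651, chromosome 10, 133262420 to 133276868), a sheddase found on leukocytes and on carcinoma cells, was at 44.3, 119 and 217 TPM in the SMAD4-lacking libraries. In the SMAD4-expressing libraries it was at 0.483, 1.01 and 2.73 TPM, which is 118-fold lower by the medians. ADAM28 was at 1.46, 12.4 and 29.7 TPM in the SMAD4-lacking and at most 0.0999 TPM in the SMAD4-expressing libraries. ADAM15, which carries an integrin-binding disintegrin domain, was high in both sets but did not overlap, at 142, 175 and 260 TPM against 19.2, 36.0 and 53.4 TPM (4.86-fold). These 3 were the proteolytic ADAMs that separated the sets, of 12 listed.

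ADAM10 (ENSG00000137845, chromosome 15, 58588809 to 58749791), the main sheddase of Notch and E-cadherin, was at 261, 403 and 561 TPM in the SMAD4-lacking and at 129, 153 and 197 TPM in the SMAD4-expressing libraries. Its sets did not overlap, but the 2.63-fold difference was under the limit of the rule. ADAM17, which releases TNF and ligands of the EGF receptor, had the opposite order, at 12.3, 17.1 and 21.98 against 20.9, 37.4 and 52.3 TPM, with overlap. The assignment of reads to ADAM17 was uncertain in part of the libraries: over the repeat estimates that the authors deposited with each library, made by kallisto from resampled reads, its SD ran from 1.02% to 50.1% of the mean. ADAM9 overlapped as well, at 112, 154 and 229 against 98.1, 117 and 167 TPM.

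The 2 non-proteolytic ADAMs that separated the sets, of 8 listed, were higher in the SMAD4-expressing libraries. ADAM22, a receptor of the secreted LGI proteins in neurons, was at 2.85, 6.23 and 11.1 TPM there and at most 0.108 TPM in the SMAD4-lacking libraries. ADAM11, a relative of ADAM22 in the nervous system, was at 1.64, 3.26 and 4.94 TPM against 0.0908, 0.478 and 0.788 TPM, 6.82-fold apart.

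Among the ADAMTS genes 4 were higher in the SMAD4-lacking libraries and 2 in the SMAD4-expressing libraries. ADAMTS1 (ENSG00000154734, chromosome 21, 26835755 to 26845409), which cuts the proteoglycans versican and aggrecan, was at 18.3, 46.2 and 117 TPM in the SMAD4-lacking and at 0.140, 0.821 and 2.89 TPM in the SMAD4-expressing libraries (56.3-fold). ADAMTS12 (ENSG00000151388, chromosome 5, 33523535 to 33892019), which cuts the cartilage protein COMP, was at 10.5, 23.6 and 67.2 TPM against at most 0.317 TPM. Neither gene had a library of one set near the range of the other.

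ADAMTS7, a relative of ADAMTS12, was at 1.43, 2.38 and 5.97 TPM in the SMAD4-lacking and at 0.0404, 0.176 and 0.387 TPM in the SMAD4-expressing libraries, although copies of similar sequence may share its reads. ADAMTS20, which cuts versican, was at 0.887, 1.65 and 2.57 TPM against at most 0.0127 TPM. Both were among the members of lower level that separated the sets.

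ADAMTS15 (ENSG00000166106, chromosome 11, 130448645 to 130476645), which also cuts versican and aggrecan, was at 3.72, 22.7 and 46.8 TPM in the SMAD4-expressing and at 0.179, 0.686 and 1.41 TPM in the SMAD4-lacking libraries, 33.0-fold apart. ADAMTS10, which associates with fibrillin microfibrils, was at 1.02, 1.85 and 4.76 TPM in the SMAD4-expressing libraries and at 0 in all 12 others. By the medians ADAMTS10 was at least 19.6-fold higher, taking 3 counts per library as the floor. ADAMTS15 had the highest TPM of the ADAMTS genes in all 14 SMAD4-expressing libraries, while ADAMTS1 led in 9 and ADAMTS12 in 3 of the SMAD4-lacking libraries.

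The inhibitors TIMP1 and TIMP2 were expressed in both sets, and TIMP3 and TIMP4 were higher in the SMAD4-lacking libraries. TIMP1 (ENSG00000102265, chromosome X, 47582408 to 47586789) was at 210, 453 and 1209 TPM in the SMAD4-lacking and at 143, 239 and 463 TPM in the SMAD4-expressing libraries, and it was the highest TIMP in every library. TIMP2 (ENSG00000035862, chromosome 17, 78852977 to 78925387), which joins proMMP2 to MMP14, was at 56.3, 85.2 and 117 against 10.5, 39.2 and 154 TPM. The sets overlapped for both genes.

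TIMP3 (ENSG00000100234, chromosome 22, 32801705 to 32863041), which binds to the matrix and also inhibits ADAM17, was at 8.17, 16.3 and 52.5 TPM in the SMAD4-lacking and at 0, 0.0647 and 1.11 TPM in the SMAD4-expressing libraries, a 252-fold difference of medians. TIMP4 (ENSG00000157150, chromosome 3, 12153068 to 12158912) was at 0.955, 2.24 and 5.03 TPM against at most 0.105 TPM. No library of one set reached the range of the other for either gene.

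Summed over the family, MMP transcripts were at 413, 1032 and 1865 TPM in the SMAD4-lacking and at 96.2, 145 and 237 TPM in the SMAD4-expressing libraries. The leading MMP was MMP1 in 8 and MMP14 in 4 of the SMAD4-lacking libraries. In the SMAD4-expressing libraries it was MMP2 in 11, MMP17 in 2 and MMP14 in 1. TIMP sums were at 290, 549 and 1367 against 185, 281 and 559 TPM, so that the sets overlapped for the inhibitors but not for the MMPs. The ratio of summed TIMP to summed MMP transcripts was 0.437 to 0.860 with a median of 0.661 in the SMAD4-lacking libraries, and 1.14 to 5.81 with a median of 1.87 in the SMAD4-expressing libraries. These are sums of transcripts and do not measure active enzyme.

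**Figure D3:**
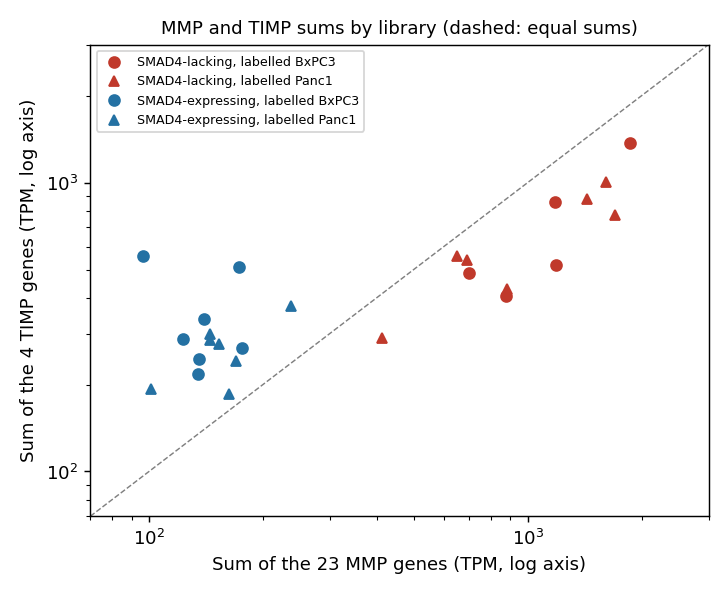
Summed TPM of the 4 TIMP genes against that of the 23 MMP genes, both on log axes, 1 point per library, with a dashed line where the sums are equal. All 12 SMAD4-lacking libraries lie below the line, at ratios up to 0.860, and all 14 SMAD4-expressing libraries above it, at ratios from 1.14.

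Genes that activate, inhibit or escort these enzymes were taken from a list of 29, of which 25 had a median of at least 1 TPM in a set. By the same rule 3 of the 29 were higher in the SMAD4-expressing libraries, beside 4.33% of all protein-coding genes, and 8 in the SMAD4-lacking libraries, beside 6.23%. The list was chosen with earlier results of these data known. RECK, a membrane-anchored inhibitor of MMPs, was at 10.2, 18.1 and 24.8 TPM in the SMAD4-expressing and at 0.120, 0.308 and 0.826 TPM in the SMAD4-lacking libraries. The tetraspanins that escort ADAM10 to the cell surface were divided between the sets. TSPAN5 was at 41.1 to 77.3 TPM in the SMAD4-expressing and at 4.52 to 13.4 TPM in the SMAD4-lacking libraries. TSPAN15 was at 128 to 273 against 15.5 to 44.2 TPM in the same direction, and TSPAN14 at 12.3 to 26.5 against 79.0 to 140 TPM in the other. TSPAN10, TSPAN17 and TSPAN33 overlapped.

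Plasmin activates several proMMPs, and several genes that control its formation were higher in the SMAD4-lacking libraries. PLAT, tissue plasminogen activator, was at 34.3 to 197 TPM in the SMAD4-lacking and at 0.127 to 0.968 TPM in the SMAD4-expressing libraries. PLAUR, the urokinase receptor, was at 30.5 to 369 against 2.82 to 20.1 TPM, while urokinase itself (PLAU) overlapped at 125 to 856 against 133 to 849 TPM. Of the inhibitors of plasminogen activators, SERPINB2 was at 21.1 to 241 TPM in the SMAD4-lacking libraries and at 0 in all 14 others, and SERPINE2 was higher there too. The proprotein convertases PCSK5 and PCSK6, and the endocytic receptor LRP1, which clears proteases with their inhibitors, completed the 8 that were higher in the SMAD4-lacking libraries. FURIN, the convertase that activates MMP14 and many ADAMs, overlapped at 60.2 to 114 against 29.1 to 81.8 TPM.

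Within a set, the members spread more widely between libraries than protein-coding genes in general, in a comparison that was not matched for level. Among the 29 members with a median of at least 1 TPM in the SMAD4-lacking set, the median ratio of the highest to the lowest library was 5.75, beside 2.05 over 12421 protein-coding genes. In the SMAD4-expressing set it was 5.53 over 24 members, beside 2.09 over 11889 genes. The ratio was over 4 in 19 of the 29 (65.5%, all genes 14.3%) and 15 of the 24 (62.5%, all genes 16.9%). The least ratio was that of ADAM17 (1.78) in the SMAD4-lacking and of ADAM10 (1.53) in the SMAD4-expressing set. Among members whose lowest library held over 3 estimated counts, the ratio was largest for MMP9 (53.4) in the SMAD4-lacking and for ADAM19 (71.3) in the SMAD4-expressing set. Each SCDCL had 1 library, so differences between SCDCLs and differences between cultures of 1 SCDCL cannot be told apart. The SD over the repeat estimates, which covers counting and read assignment only, had a median of 3.76% over 659 member values of at least 1 TPM.

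**Figure D4:**
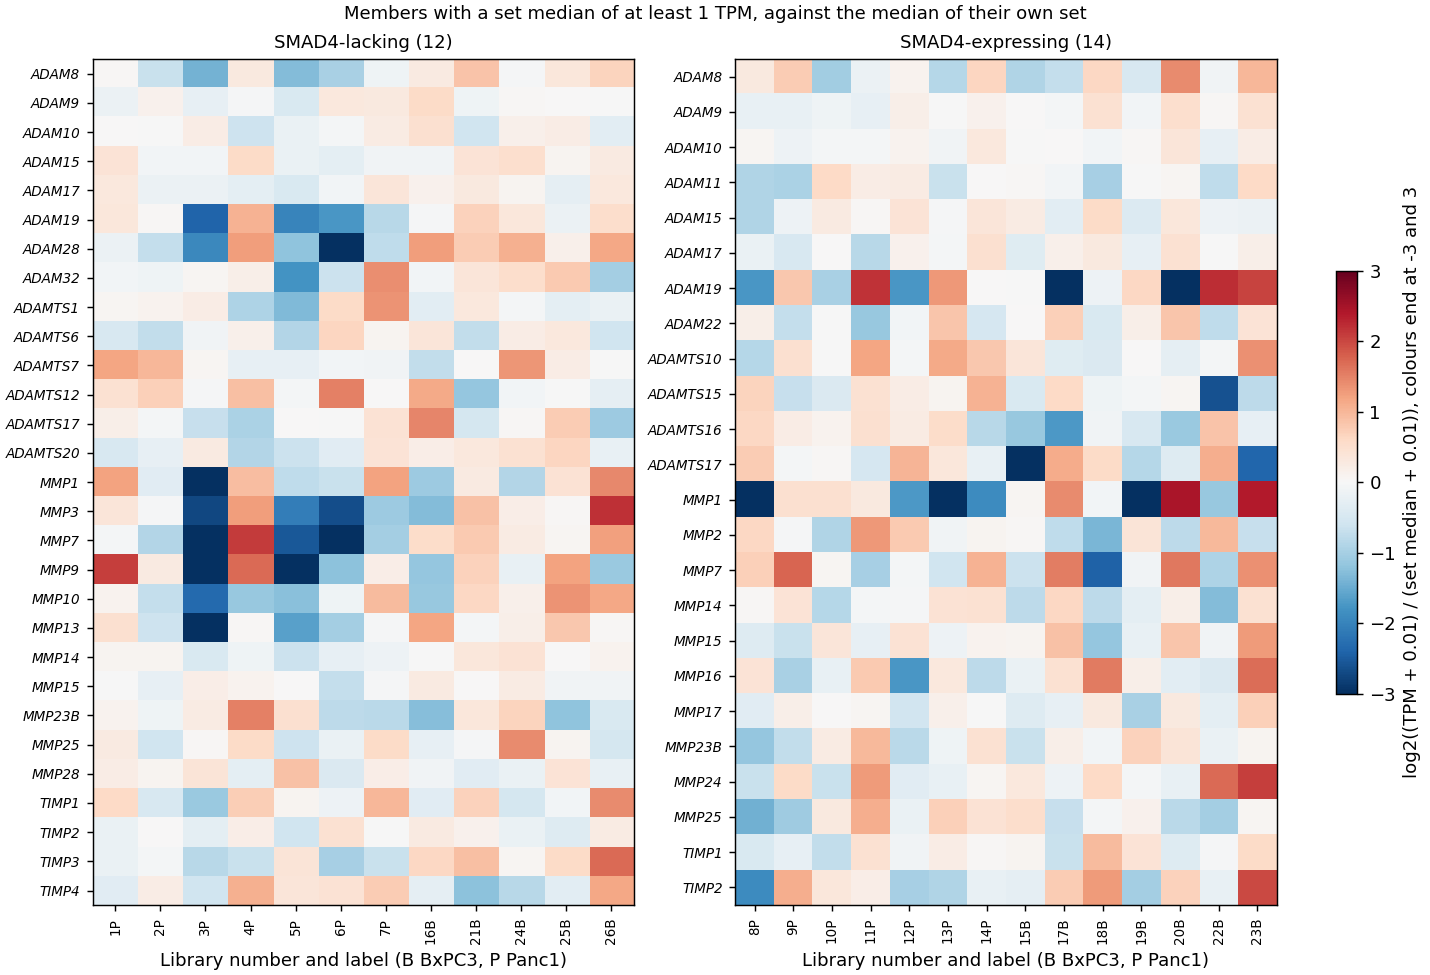
Log2 ratio of each library to the median of its own SMAD4 set for the members with a set median of at least 1 TPM (29 on the left, 24 on the right), rows being genes and columns libraries with their label. Red is above and blue below the set median. Library 3 is blue for MMP1, MMP3, MMP7, MMP9, MMP10 and MMP13, library 22 for ADAMTS15, and the rows of ADAM9, ADAM10 and ADAM17 are pale.

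A single library stood apart where the highest was at least 3-fold above the next of its set, or the lowest at least 3-fold below the next, with 1 TPM or more in the higher of both. This was found for 2 of the 66 members, beside 2.23% of all protein-coding genes in either set. In both cases 1 library was low, which was the case for 0.256% of protein-coding genes in the SMAD4-lacking and 0.573% in the SMAD4-expressing set. MMP1 was at 52.5 TPM (1674 estimated counts, SD over repeat estimates 1.74 TPM) in library 3, labelled Panc1, and the next SMAD4-lacking library, 16, was at 238 TPM, 4.53-fold higher. ADAMTS15 was at 3.72 TPM (541 estimated counts, SD over repeat estimates 0.194 TPM) in library 22, labelled BxPC3, and the next SMAD4-expressing library, 23, was at 13.1 TPM, 3.52-fold higher. The depth of both libraries was ordinary, with totals of 29884346 and 30070366 estimated counts. Short of the 3-fold limit but over 2-fold were ADAM28 in library 6 (1.46 TPM, 2.21-fold below the next) and MMP10 in library 3 (0.657 TPM, 2.13-fold below the next).

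Library 3 was the lowest of the 12 SMAD4-lacking libraries in 9 of the 29 members, namely MMP1, MMP3, MMP7, MMP9, MMP10, MMP13, ADAM8, ADAM19 and TIMP1, and the highest in 0. Over all 12421 protein-coding genes it was the lowest in 8.24% and the highest in 15.5%. Against the set median, MMP1 was 9.62-fold lower in library 3, MMP9 12.7-fold, MMP13 8.20-fold, MMP3 6.87-fold and MMP10 5.07-fold. Other members of library 3 lay near the set median: MMP28 was at 55.2 TPM (median 42.5), ADAMTS1 at 53.7 (46.2), ADAMTS12 at 23.1 (23.6), MMP12 at 0.668 (0.681) and ADAM10 at 469 (403). The low values therefore concerned part of the family, including 5 of the 9 neighbouring MMP genes. Of these, MMP7 rested on 1.77, MMP3 on 8.99 and MMP13 on 13.5 estimated counts in library 3. The neighbours MMP20, MMP27 and MMP8 were below 1 TPM in every library and could not stand out as low.

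Libraries 5 and 6, also labelled Panc1, shared part of this pattern. MMP3 was at 0.452 TPM in library 5 and 0.299 TPM in library 6, and MMP7 at 0.457 and 0.202 TPM, on 8.03 and 3.95 estimated counts. MMP1 was not among the shared genes, at 300 and 316 TPM, above library 16 (238 TPM). MMP10 was at 1.40 TPM in library 5 and at 3.06 TPM in library 6, the latter near the set median of 3.33 TPM. MMP9 was at 1.06 TPM in library 5, close to library 3, and at 5.11 TPM in library 6. Library 5 was the lowest in 8 of the 29 members, a different group that held MMP14, TIMP2, ADAM9, ADAM17, ADAM32, ADAMTS1, ADAMTS6 and MMP25, and over all protein-coding genes it was the lowest in 6.84%. Library 26, labelled BxPC3, was the highest in MMP1 (1370 TPM), MMP3 (8.98 TPM), TIMP1 (1209 TPM), TIMP3 (52.5 TPM) and TIMP4 (5.03 TPM). Over all protein-coding genes library 26 was the highest in 5.56% and the lowest in 22.5%, the latter more than any other SMAD4-lacking library.

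In the SMAD4-expressing set, library 22 was the lowest in 3 of the 24 members, ADAMTS15, MMP14 (9.70 TPM, median 24.0) and ADAM10 (129 TPM, median 153). This share was not above that over all protein-coding genes, 13.3%. MMP2 was at 122 TPM in library 22, above the median of 62.5. Library 8 was the lowest in 6 of the 24 members (ADAM15, ADAMTS10, MMP1, MMP23B, MMP25 and TIMP2), beside 4.02% of all protein-coding genes. Its MMP1 rested on 1.02 estimated counts. ADAMTS6, which did not separate the sets, was 6.12-fold above the set median of 0.247 TPM in library 22, at 1.51 TPM. It was higher still in library 13, at 1.73 TPM. Library 23 was the highest of the 14 in 6 of the 24 members, namely MMP15, MMP16, MMP17, MMP24, ADAMTS10 and TIMP2. Over all 11889 protein-coding genes it was the highest in 15.6%, more than any other library of the set. Of the 6 members, 4 are membrane-type MMPs. ADAM19, a sheddase of neuregulins, varied from 0.146 to 10.4 TPM within this set.

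MMP14, TIMP2 and proMMP2 form a complex at the cell surface in which MMP14 activates MMP2, so the 3 transcripts were compared across SCDCLs within each set. MMP2 and TIMP2 were inversely related in the 14 SMAD4-expressing libraries on the log2(TPM + 1) scale, with Pearson's r of -0.630 (permutation test, two-sided p = 0.0166, adjusted p = 0.0666) and Spearman's rho of -0.635 (permutation p = 0.0175, adjusted p = 0.0702), so it missed the threshold after adjustment over the 4 relations computed. Library 18 had the least MMP2 (24.1 TPM) with 95.3 TPM of TIMP2, and library 11 had the most MMP2 (154 TPM) with 44.7 TPM of TIMP2. Without these 2 libraries, which lay farthest from the median of MMP2, r was -0.700 (permutation p = 0.0119, adjusted p = 0.0478), while rho was -0.650 (adjusted p = 0.101).

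No relation of MMP14 passed the threshold in the SMAD4-expressing libraries, neither with MMP2 (r = -0.107, permutation p = 0.717, rho = -0.178, p = 0.540) nor with TIMP2 (r = 0.123, permutation p = 0.671, rho = 0.253, p = 0.383). Between MMP14 and TIMP2 in the 12 SMAD4-lacking libraries r was 0.323 (permutation p = 0.304, rho = 0.175, p = 0.589), and without libraries 3 and 5 it was -0.392 (permutation p = 0.263), so the sign rested on those libraries. Adjusted over the 4 relations, the permutation p-values of these 3 with all libraries kept were 0.609 or more for r and 0.589 for rho. Without libraries 3 and 5 the adjusted permutation p of r was 0.525. Within the labels the sets hold 5 to 7 libraries, and r of MMP2 with TIMP2 was -0.772 in the 7 SMAD4-expressing libraries labelled BxPC3 (exact permutation test, p = 0.0429, adjusted p = 0.30 over 7 relations) and -0.327 in the 7 labelled Panc1 (exact permutation test, p = 0.469).

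**Figure D5:**
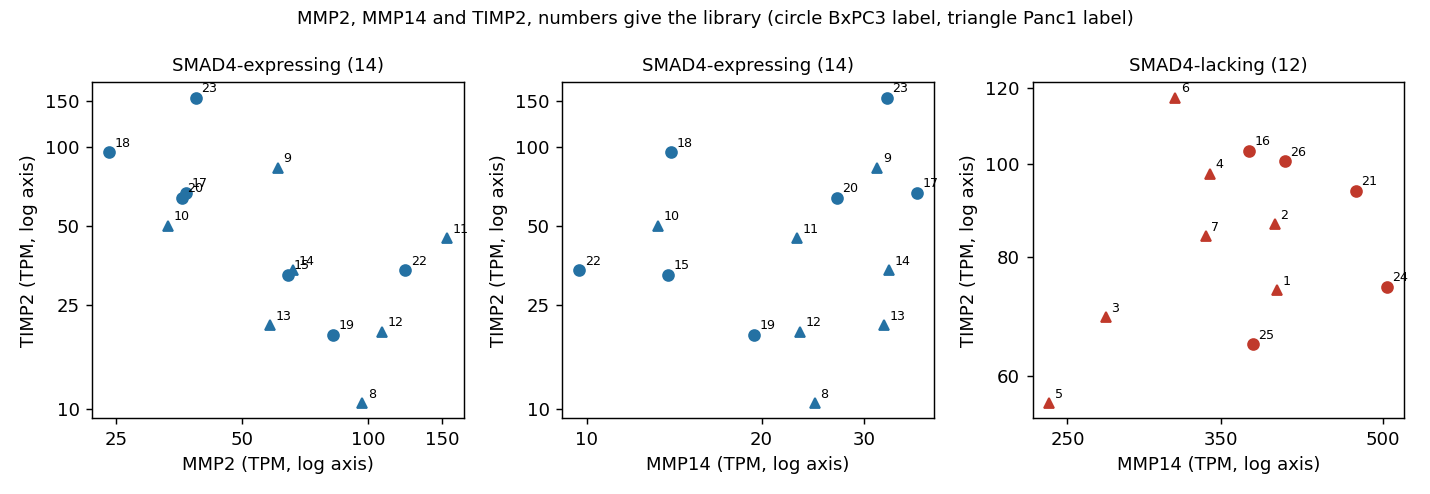
TIMP2 against MMP2 and MMP14 in the 14 SMAD4-expressing libraries (left and middle) and against MMP14 in the 12 SMAD4-lacking libraries (right), in TPM on log axes, with the library number beside each point. TIMP2 falls from library 18 (24.1 TPM of MMP2) towards libraries with more MMP2 in the left panel (r = -0.630, adjusted p = 0.0666), and libraries 3 and 5 lie at the lower left of the right panel.

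Between the labels themselves, 14 libraries labelled Panc1 and 12 labelled BxPC3, none of the 42 members tested was called with edgeR's quasi-likelihood test at an adjusted p under 0.05 and a log2 fold change over 1, beside 0% of the 16008 genes tested. The smallest adjusted p among members was 1.00, and 0 members passed an unadjusted p under 0.05, beside 2.29% of all genes. DESeq2 and limma called 0 members too, although DESeq2 gave MMP20 an unadjusted p under 0.05. Each label joins libraries of both SMAD4 sets, and a member such as MMP2 spanned 0 to 122 TPM under the label BxPC3 and 0 to 154 TPM under the label Panc1. The p-values rest on the spread between SCDCLs of 1 library each, which under each label includes the difference between the SMAD4 sets. The absence of calls therefore does not show that the 2 cell lines are alike.

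Within the SMAD4-lacking libraries alone, a comparison added after the data had been seen, the 7 labelled Panc1 and the 5 labelled BxPC3 differed in 3 of 43 members tested at an unadjusted p under 0.05, beside 11.4% of all genes, and in 0 after adjustment. The share among members was thus not above that of all genes, and the values are given as a description. TIMP3 was at 8.17, 10.3 and 21.4 TPM in those labelled Panc1 and at 16.8, 25.05 and 52.5 TPM in those labelled BxPC3 (edgeR log2 fold change -1.23, adjusted p = 0.404). ADAM8 was at 44.3, 75.1 and 145 TPM against 117, 150 and 217 TPM, and ADAM28 at 1.46, 7.26 and 29.6 TPM against 13.7, 25.9 and 29.7 TPM. The ranges of the labels overlapped for each of the 3. Within the SMAD4-expressing libraries 1 of 36 members tested, ADAM9, had an unadjusted p under 0.05, beside 4.62% of all genes, and it failed the adjustment (edgeR adjusted p = 0.982). With the SMAD4 set as a covariate over all libraries, 8 of 42 members had an unadjusted edgeR p under 0.05, a larger share than the 7.52% of all genes. These were ADAM8, ADAM28, ADAMTS16, ADAMTS20, MMP11, MMP13, MMP16 and MMP28. The difference in shares was not tested. None passed the adjustment, and the smallest adjusted p of a member was 0.615.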

How the data were processed

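Polyadenylated RNA was sequenced from both ends with strand kept, 1 library per SCDCL. The authors assigned reads with kallisto 0.46.1 to the Ensembl 103 transcripts of GRCh38 and summed them per gene with tximport. The TPM values and the estimated counts (length-scaled, not whole) were used as the authors deposited them, with 5 of the 30 repeat estimates of the counts per library (kallisto estimates from resampled reads), and 0 columns belonged to other samples. TPM summed to 982304 to 986981 per library in the table. Symbols and positions came from GENCODE 44 by Ensembl identifier, matched for 36315 of 41078 genes. MMP24OS, an antisense gene, was left out.

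The SMAD4 sets (SMAD4 under 1 TPM or not) were described by lowest, median and highest TPM. A ratio of medians was given where the lower median was over 3 estimated counts. Members and lists were chosen with earlier results of these data known. The genes named were those with the 8 largest ratios in each direction, the 5 highest in each set, the TIMPs, the genes with a single library apart, MMP2, MMP14 and any gene called between the labels; other members named to account for their role group were chosen after their values were seen. Labels were compared with edgeR 4.0.16 (filterByExpr, TMM, quasi-likelihood test, Benjamini-Hochberg adjustment) on rounded estimated counts, with DESeq2 1.42.0 and limma 3.58.1 as alternatives, in R 4.3.3. Relations used log2(TPM + 1) and 100000 permutations (Python 3.11.15, scipy 1.17.1). Other alternatives were CPM or median-of-ratios scaling, other limits and pseudocounts, and each library left out. The steps were tested on simulated data. The SD over repeat estimates covers counting and assignment error only, and the study's comparison by response to gemcitabine was not analysed here. A gene of the list of activators and inhibitors is not reported here.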

Additional observations from a re-analysis of the deposited data

How the results depend on the processing

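The 24 members that separated the SMAD4 sets were the same 24 with CPM or with median-of-ratios scaling, which moved the median of all genes between the sets by less than 0.1 log2. With a limit of 2-fold there were 25 (ADAM10 added), with 10-fold 21, with a minimum median of 0.5 TPM 25 (MMP12 added) and with 5 TPM 14, since members of lower level no longer qualified. Without any 1 library the number was 24 to 25, with ADAMTS16 added when library 17 was left out. The 2 members with a single low library were kept at a minimum of 5 TPM and with the least favourable of the repeat estimates. They became 4 with a 2-fold limit (ADAM28 and MMP10 added), 0 with 5-fold, 4 with a minimum of 0.5 TPM (ADAM23 high in library 26 and ADAMTS3 high in library 4 added) and 5 with CPM (ADAMTS12 high in library 13 added to those 4). The relation of MMP2 with TIMP2 in the SMAD4-expressing libraries passed the adjusted threshold only without its 2 extreme libraries (r = -0.700), and that of MMP14 with TIMP2 in the SMAD4-lacking libraries changed sign without libraries 3 and 5 (r = -0.392), a change that comes from leaving out those libraries. Between the labels 0 members were called under every alternative and with each library left out. No paired analysis was possible because each library came from a separate SCDCL. Members below about 3 estimated counts in a set cannot be told from absence at this depth.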
